A study of Canis lupus familiaris with 18 samples.

Results

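Genes recurrently mutated in human oligodendroglioma or in other human diffuse gliomas, 10 in all, were looked up by symbol in RNASeq counts from canine high grade oligodendroglioma (HGO). The genes are IDH1, IDH2, CIC, FUBP1, ATRX, DAXX, TERT, SETD2, ARID1A and TCF12. Of the 29993 rows counted, 8 carried one of these symbols, and all 8 passed the filter on low counts that left 16495 genes for testing. No row carried the symbol IDH1 or FUBP1, so these genes are not analysed here. Counts per gene carry no information on mutations, so the results concern expression alone.

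The 18 libraries came from prosencephalic (forebrain) tumors that were surgically resected from pet dogs at enrollment in clinical trials, fixed in formalin and embedded in paraffin. French bulldogs gave 11 of them, and the comparison breeds were boxers with 4 and Boston terriers with 3. Age, sex and tumor site were not matched between the groups. The study asked whether HGO of French bulldogs differs in expression from that of these related breeds. Libraries are named by breed and by the number in their label, so that boxers are 1, 3, 4 and 5 and Boston terriers are 2, 6 and 7.

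The genes fall into a few molecular roles. IDH2 is the mitochondrial form of isocitrate dehydrogenase, an enzyme whose mutant forms in human glioma make 2-hydroxyglutarate, which inhibits DNA and histone demethylases. CIC is a transcriptional repressor of genes induced by receptor tyrosine kinase signaling, and its loss in human oligodendroglioma accompanies the combined loss of chromosome arms 1p and 19q. TERT is the catalytic subunit of telomerase. ATRX and DAXX together deposit histone H3.3 at telomeres and other repeats, and loss of ATRX marks human astrocytoma rather than oligodendroglioma. SETD2 trimethylates lysine 36 of histone H3, ARID1A is a DNA-binding subunit of the SWI/SNF chromatin remodeler, and TCF12 is an E protein that pairs with OLIG2 and related factors in the oligodendrocyte lineage.

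Some facts of the libraries touch every result. Libraries held 8212452 to 13169880 counts on genes, and levels are given as counts scaled to 1000000 counts per library after TMM normalization (normalized CPM). French bulldog 6 carries the HGO label but had little RNA of that lineage. Its 9 oligodendrocyte lineage markers summed to 45.2 normalized CPM, against 1302 to 7151 in the other French bulldogs and 2102 to 4140 in the comparison breeds, and OLIG2 and NKX2-2 were at 0 counts. Neuron and astrocyte markers were low there as well, at 1.46 and 22.5 normalized CPM in sum, against at least 84.7 and 518 in every other library. Its 12 macrophage and microglia markers summed to 8453 normalized CPM, against 64.7 to 427 and 109 to 210, with none at 0. Its 7 T cell markers summed to 148 normalized CPM, against 2.70 to 14.3 and 2.58 to 45.8. All 12 macrophage markers had a log2 fold change above 0 between the groups, 8 with an unadjusted p-value under 0.05 in edgeR (7.02% of all genes were higher at that threshold) and 0 without this library (6.92% of all genes). In bulk tissue, fewer cells of a type and less RNA per cell cannot be told apart. A case number is common to the labels of French bulldogs 2 and 8, which differ in a letter after it, B and A. The Pearson correlation of their log2 CPM over all genes tested was 0.981, against 0.765 to 0.946 for other pairs of libraries without French bulldog 6. Their counts differed by more than counting noise (chi-square of 8.74 per degree of freedom), which does not show that they came from separate dogs, since libraries made separately from 1 tumor would differ too. The study describes the samples as coming from as many dogs as there are libraries, and the labels name no dogs. Its list of dogs gives French bulldogs 2 and 8 the same age, sex and tumor site, so whether they are 1 dog is not settled here. They were kept as 2 libraries, and where they are the highest libraries the value with their counts summed as 1 sample is given too. The p-values measure the spread between libraries, with French bulldogs 2 and 8 counted as separate except where summed.

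By edgeR's quasi-likelihood test, 0 of the 8 listed genes differed between French bulldogs and the comparison breeds at an adjusted p under 0.05. Over all genes tested, 0.00606% passed that threshold (1 gene of 16495), and 0.0183% without French bulldog 6. At an unadjusted p-value under 0.05 the test called 10.6% of all genes, 3.55% as lower and 7.02% as higher in French bulldogs, and 0 of the 8 listed genes. Without French bulldog 6 it called 10.8%, 3.93% as lower and 6.92% as higher, and again 0 of the 8. Without French bulldog 9 it called 12.8% and 2 of the 8, IDH2 and CIC (edgeR unadjusted p = 0.0458 and 0.0341). CIC alone was called without French bulldog 7 (12.0% of all genes) or boxer 1 (8.72%). The DESeq2 Wald test gave 0 of the 8 at either threshold, where 0.258% of all genes had an adjusted p and 11.6% an unadjusted p under 0.05. The French bulldog and comparison ranges overlapped for all 8 genes, where 0.0546% of all genes had ranges that did not overlap (0.0606% without French bulldog 6). The log2 fold change was below 0 for 4 of the 8 genes, where 46.3% of all genes were below 0 (44.6% without French bulldog 6), and above 0 for 4, with a median of 0.02 beside 0.04 over all genes tested. With all 18 libraries the largest in size were those of TERT at -0.90, IDH2 at 0.51 and CIC at -0.32. Without French bulldog 6 they were those of TERT at -0.73 and TCF12 at 0.41, with IDH2 at 0.27 and CIC at -0.27. Library names carry a running number, which starts at S1 in the French bulldogs. It starts again at S1 for boxer 5 and Boston terriers 6 and 7, after S18 to S21 for the other 4 comparison libraries. The numbers S1 to S3 are thus held by French bulldogs too, while S18 to S21 are not. It was not known which libraries were sequenced together. Against S18 to S21 and against S1 to S3 taken separately, the log2 fold changes were -1.18 and -0.38 for TERT, 0.55 and 0.49 for IDH2, and -0.18 and -0.48 for CIC, with edgeR adjusted p-values of 0.886 to 0.977.

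**Figure D1:**
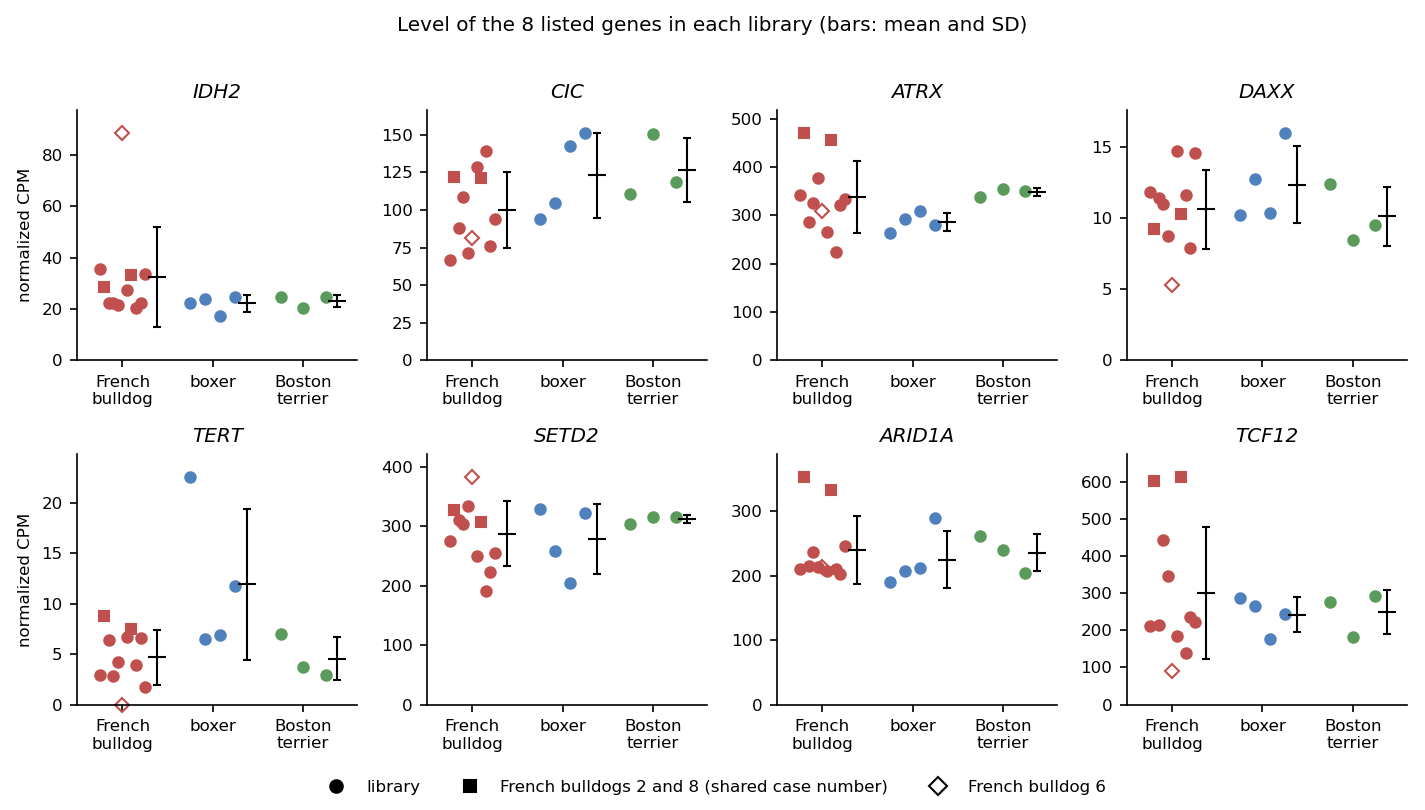
Normalized CPM of the 8 genes (vertical axes, each from 0) in every library, by breed, with the mean and SD of each breed beside the points. French bulldog 6, the open diamond, is highest for IDH2 at 88.6 and is at 0 for TERT, and French bulldogs 2 and 8, the squares, are the highest for TCF12, ATRX and ARID1A.

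IDH2 (ENSCAFG00000012052) had its lowest value in French bulldogs at 20.4 normalized CPM, a median of 27.5 and a highest value of 88.6. In boxers 1, 3, 4 and 5 it had 22.5, 24.0, 17.4 and 24.9 normalized CPM, and in Boston terriers 2, 6 and 7 it had 24.6, 20.5 and 24.7. In 6 of the 11 French bulldogs the level lay above every comparison library, and the other 5 lay within the comparison range. The 6 include French bulldogs 2 and 8, which share a case number, and French bulldog 6. French bulldogs had a mean of 32.4 ± 19.4 normalized CPM (SD, n = 11) and the comparison breeds one of 22.7 ± 2.78 (SD, n = 7). The log2 fold change (French bulldogs over the others) was 0.51 (SE 0.26, 95% interval -0.04 to 1.06, edgeR adjusted p = 0.495).

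The highest IDH2 value belongs to French bulldog 6, at 3.69 times the median of the other 17 libraries, and in this library the macrophage and microglia markers were also far above their range elsewhere. Without it the French bulldog mean was 26.7 ± 5.77 normalized CPM (SD, n = 10), the highest value was 35.7, and the log2 fold change was 0.27 (SE 0.15, edgeR adjusted p = 0.540). Across the 17 other libraries the r of IDH2 with the macrophage marker score (the mean z-score of the list) was 0.30 (permutation p = 0.237, adjusted p = 0.379, rho = 0.12). Without the 2 libraries farthest from the median score it was -0.33. With French bulldog 6 included it was 0.82 (permutation test, adjusted p = 0.0369, rho = 0.26). The r of IDH2 with the oligodendrocyte lineage and neuron scores was then of similar size, at -0.84 and -0.85 (permutation tests, adjusted p = 0.0688 and 0.0028). Which of these differences goes with the IDH2 level of that library was not tested.

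Enzymes of isocitrate and 2-hydroxyglutarate metabolism and the TET demethylases were read from a list of 11 symbols, of which 10 had a row and were tested. D2HGDH, which breaks down D-2-hydroxyglutarate, averaged 7.17 ± 3.12 normalized CPM in French bulldogs against 12.4 ± 5.69 in the comparison breeds, a log2 difference of -0.79 (SE 0.31, unadjusted p = 0.0189 and edgeR adjusted p = 0.433). It stayed at -0.75 without French bulldog 6. ACO1, the cytosolic aconitase, had a log2 difference of 1.20 (unadjusted p = 0.0323 and edgeR adjusted p = 0.445), which was 0.37 without French bulldog 6. IDH3G, a subunit of the NAD-dependent isocitrate dehydrogenase, had the next smallest p-value with a log2 difference of -0.13. The median over the 10 genes was -0.09, and none had an adjusted p-value under 0.05.

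CIC (ENSCAFG00000004858) ranged from 66.5 to 139 normalized CPM in French bulldogs, with a median of 94.2. Boxers 1, 3, 4 and 5 had 93.8, 104.5, 142 and 151 normalized CPM, and Boston terriers 2, 6 and 7 had 111, 151 and 119. Of the 11 French bulldogs, 5 lay below every comparison library and none lay above the highest. The means were 99.7 ± 25.2 normalized CPM (SD, n = 11) and 125 ± 23.4 (SD, n = 7), a log2 difference of -0.32 (SE 0.17, 95% interval -0.68 to 0.03, edgeR adjusted p = 0.503). Without French bulldog 6 the log2 fold change was -0.27 (edgeR adjusted p = 0.586). In that library the CIC level, 81.6 normalized CPM, lay within the range of the other French bulldogs.

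A repressor can also be followed through the genes it holds down. A list of 13 symbols held the CIC partners ATXN1 and ATXN1L and known targets such as the ETS factors ETV1, ETV4 and ETV5 and the signaling inhibitors DUSP6 and SPRED1. Of these, 11 had a row and were tested, 5 with a log2 fold change above 0 and 6 below. None had an unadjusted p-value under 0.05, where 10.6% of all genes did, the share against which the count of every list here is to be read (10.8% without French bulldog 6). DUSP5 had 1.17 (SE 0.64, edgeR adjusted p = 0.517), SPRED1 had 0.21 (SE 0.13, unadjusted p = 0.125) and DUSP6 had -0.40 (SE 0.29, adjusted p = 0.630). The median of the list was -0.17, and -0.02 without French bulldog 6.

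Across the 17 libraries other than French bulldog 6, the level of CIC was set against each of these 11 genes, a family of tests chosen after the data were seen. No Pearson correlation had an adjusted p-value under 0.05 (permutation tests over 11 pairs, 3 with an unadjusted p-value under 0.05). The correlation was positive for 9 of the 11 genes, and the share of all genes that correlate positively with CIC was not computed. The largest was with SHC3, an adaptor protein of receptor signaling (r = 0.57, permutation p = 0.0125, adjusted p = 0.117, Spearman's rho = 0.67, permutation p = 0.00394, adjusted p = 0.0433). Without the 2 libraries farthest from the median of SHC3 the r was 0.69. With French bulldogs 2 and 8 summed, 0 of the 11 pairs had an adjusted p-value under 0.05 by either coefficient, and the rho with SHC3 was 0.68 (adjusted p = 0.0502, permutation test). ETV1, ETV4 and ETV5 had r of 0.27, 0.29 and 0.16 with CIC. Without the 2 libraries farthest from the median of each gene these were -0.12, 0.12 and 0.01. In that setting SPRY2, SPRED2 and DUSP5 also had r below 0.

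FUBP1, the other gene of the human co-deletion, had no row under its symbol. Of its relatives and the genes it is known to act on, FUBP3 had a log2 difference of 0.17 (SE 0.16, edgeR adjusted p = 0.733), KHSRP -0.16 (adjusted p = 0.751) and MYC 0.39 (SE 0.50, adjusted p = 0.808). None of the 4 genes of that list had an unadjusted p-value under 0.05.

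TERT (ENSCAFG00000010739) had few reads and the widest spread of the 8 genes. French bulldogs ran from 0 to 8.81 normalized CPM with a median of 4.22, or from 0 to 79 counts. Boxers 1, 3, 4 and 5 had 22.5, 6.49, 6.87 and 11.8 normalized CPM, and Boston terriers 2, 6 and 7 had 6.96, 3.76 and 2.90. Boxer 1 was the highest library of all 18 with 225 counts, and the Boston terriers lay within the French bulldog range. The means were 4.70 ± 2.72 normalized CPM (SD, n = 11) in French bulldogs against 8.76 ± 6.71 (SD, n = 7) in the comparison breeds. The log2 fold change was -0.90 (SE 0.56, 95% interval -2.06 to 0.27, edgeR adjusted p = 0.566).

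That value moved with boxer 1. Leaving it out brought the TERT log2 fold change to -0.46, and leaving out each library in turn gave values from -1.05 to -0.46. Against the boxers alone it was -1.34 (edgeR adjusted p = 0.695), and against the Boston terriers alone it was 0.06 (edgeR unadjusted p = 0.944). CLPTM1L, the gene next to TERT in the RefSeq annotation, had 38.2 normalized CPM in boxer 1, beside a median of 37.2 and a range of 21.9 to 72.8 over the 18 libraries.

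French bulldog 6 had 0 TERT counts, which allows a level of up to 0.312 normalized CPM at a floor of 3 counts. That limit is at least 20.8-fold lower than the median of 6.49 in the other 17 libraries, which all had 18 counts or more. Its proliferation markers were not low, at 1192 normalized CPM summed over 9 genes, against 81.3 to 1221 in the other French bulldogs. Without this library the TERT log2 fold change was -0.73 (SE 0.39, edgeR adjusted p = 0.508).

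Telomerase has further subunits, and shelterin is the complex that caps telomeres. Of 13 symbols on that list, 10 were tested, and 1 had an unadjusted p-value under 0.05, where 10.6% of all genes did. This was NOP10, a protein of the telomerase ribonucleoprotein, with a log2 difference of 0.63 (SE 0.23, unadjusted p = 0.0144 and edgeR adjusted p = 0.433), and 0.61 without French bulldog 6. TERF1, a telomere-binding shelterin protein, had 0.36 (adjusted p = 0.482) and DKC1, the dyskerin subunit, had 0.54 (adjusted p = 0.517).

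ATRX (ENSCAFG00000017252) ranged from 225 to 470 normalized CPM in French bulldogs with a median of 325.5, and the highest 2 values were those of French bulldogs 2 and 8, at 470 and 455. Boxers 1, 3, 4 and 5 had 264, 292, 309.5 and 281 normalized CPM, and Boston terriers 2, 6 and 7 had 338, 354.5 and 351. The boxer and Boston terrier ranges did not overlap for ATRX, with boxers below, which was the case for 1 of the 8 genes and for 3.61% of all genes tested (7.26% in either direction). The French bulldogs spanned both ranges. Their mean of 337.5 ± 74.0 (SD, n = 11) stood beside 313 ± 35.95 (SD, n = 7) in the comparison breeds, a log2 difference of 0.11 (SE 0.15, 95% interval -0.21 to 0.43, edgeR adjusted p = 0.830). It was 0.06 with French bulldogs 2 and 8 summed.

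DAXX (ENSCAFG00000000981), the histone chaperone that works with ATRX, ranged from 5.31 to 14.7 normalized CPM in French bulldogs with a median of 10.99. The comparison breeds ranged from 8.45 in Boston terrier 6 to 16.0 in boxer 5, with a median of 10.4. The lowest value was that of French bulldog 6, at 0.483 times the median of the others. The log2 fold change was -0.10 (SE 0.20, 95% interval -0.52 to 0.31, edgeR adjusted p = 0.896), and 0.00 without that library (95% interval -0.37 to 0.37). RefSeq names no gene that overlaps DAXX.

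Of the 8 tested genes of H3.3 handling and nuclear bodies, ASF1A, a histone chaperone, had an unadjusted p-value under 0.05, where 10.6% of all genes did. It averaged 14.6 ± 2.99 normalized CPM in French bulldogs against 10.8 ± 1.55 in the comparison breeds, a log2 difference of 0.43 both with and without French bulldog 6 (SE 0.16, unadjusted p = 0.0149 and edgeR adjusted p = 0.433 with all 18 libraries). SP100, a nuclear body protein induced by interferon, had 1.09 with all libraries and 0.27 without French bulldog 6. H3-3A, which encodes histone H3.3, had 0.32 (adjusted p = 0.605). Without French bulldog 6, CBX5, a heterochromatin protein named after its values were seen, also had an unadjusted p-value under 0.05 (0.33, edgeR unadjusted p = 0.0376 and adjusted p = 0.442).

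SETD2 (ENSCAFG00000013392) ranged from 191.5 normalized CPM in French bulldog 9 to 383 in French bulldog 6, with a median of 304. Boxers 1, 3, 4 and 5 had 330, 259, 205 and 322 normalized CPM, and Boston terriers 2, 6 and 7 had 304, 316 and 315. The means were 287 ± 54.7 (SD, n = 11) and 293 ± 45.2 (SD, n = 7), a log2 difference of -0.03 (SE 0.15, 95% interval -0.34 to 0.28, edgeR adjusted p = 0.970). The sign changed with the setting, to 0.04 against boxers alone, for example. The 9 tested genes that write or remove methylation at the same histone residue all had unadjusted p-values over 0.05, and their median log2 fold change was 0.02. The smallest p-values were those of the methyltransferases NSD3 (-0.26) and NSD2 (0.23) and of the demethylase KDM2A (0.15).

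ARID1A (ENSCAFG00000012314) lay between 202.5 and 246 normalized CPM in 9 of the 11 French bulldogs, and French bulldogs 2 and 8 stood above at 353 and 332.5. The comparison breeds ranged from 190.5 in boxer 1 to 289 in boxer 5, with a median of 212. The means were 240.0 ± 52.5 (SD, n = 11) and 229 ± 35.7 (SD, n = 7), a log2 difference of 0.07 (SE 0.15, 95% interval -0.25 to 0.38, edgeR adjusted p = 0.912). Leaving out French bulldog 2 alone brought it to -0.003, and summing French bulldogs 2 and 8 brought it to 0.01.

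The other SWI/SNF subunits were measured in 19 rows, 7 with a log2 fold change above 0 and 12 below, with a median of -0.06. PHF10, a subunit of the PBAF form of the complex, had 0.49 (SE 0.20, unadjusted p = 0.0275 and edgeR adjusted p = 0.434), and 0.58 without French bulldog 6 (adjusted p = 0.368). ARID1B, the paralog that takes the place of ARID1A in other BAF complexes, had -0.22 (SE 0.12, adjusted p = 0.508). DPF1, a subunit of the neuronal form, had -0.94 (SE 0.55, adjusted p = 0.545), and -0.78 without French bulldog 6 (edgeR unadjusted p = 0.0404 and adjusted p = 0.443). SMARCD2, another subunit, also named after its values were seen, moved from -0.16 to -0.47 without that library (edgeR unadjusted p = 0.0480 and adjusted p = 0.454).

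TCF12 (ENSCAFG00000016200) varied more than any other listed gene except TERT. It ranged from 89.5 to 613 normalized CPM in French bulldogs, with a median of 223. French bulldogs 8, 2, 4 and 5, at 613, 603, 443 and 348, lay above every comparison library. Boxers 1, 3, 4 and 5 had 287, 265, 176 and 243 normalized CPM, and Boston terriers 2, 6 and 7 had 275, 181.5 and 291. French bulldog 6 was the lowest of all, at 0.368 times the median of the others. The means were 301 ± 179 (SD, n = 11) and 245.5 ± 48.4 (SD, n = 7), a log2 difference of 0.29 (SE 0.33, 95% interval -0.39 to 0.98, edgeR adjusted p = 0.779). It was 0.41 without French bulldog 6 and 0.14 with French bulldogs 2 and 8 summed.

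TCF12 acts with other basic helix-loop-helix factors, and 7 rows of that list were tested. With all 18 libraries no row had an unadjusted p-value under 0.05, and the smallest were those of HEY1, a Notch target (0.39), ID3, an inhibitor of E proteins (-0.33), and OLIG2 (-0.53). Without French bulldog 6, in which OLIG2 was at 0 counts, HEY1 had a log2 difference of 0.54 (SE 0.23, unadjusted p = 0.0327 and edgeR adjusted p = 0.435) and OLIG2 had -0.38 (SE 0.17, unadjusted p = 0.0383 and adjusted p = 0.442). OLIG2 averaged 140 ± 57.9 normalized CPM in all 11 French bulldogs and 202 ± 45.2 in the comparison breeds.

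**Figure D2:**
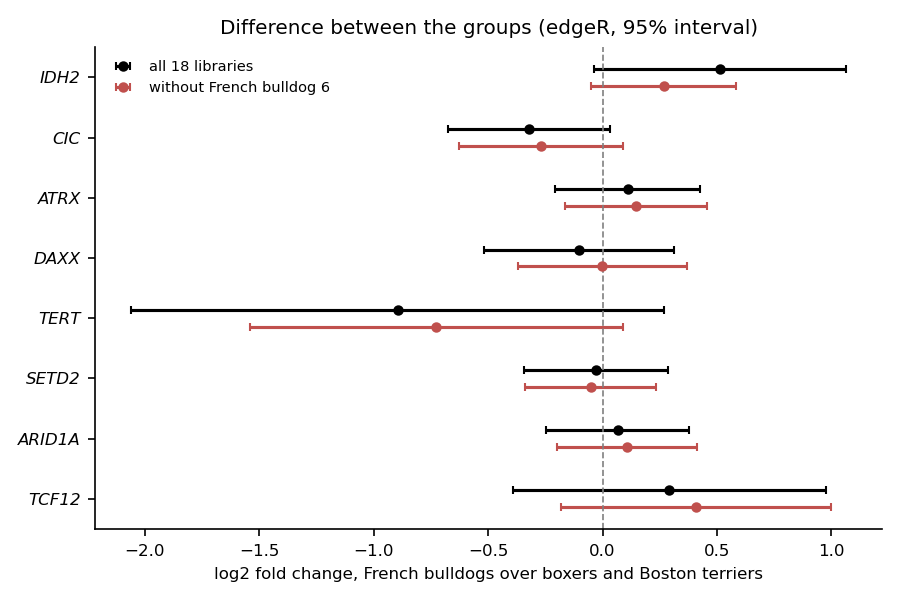
Log2 fold change of French bulldogs over boxers and Boston terriers for each gene (horizontal axis), with 95% intervals from edgeR, in all 18 libraries (black) and without French bulldog 6 (red). Every interval includes 0, and the IDH2 value moves from 0.51 to 0.27 without French bulldog 6.

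The spread between libraries differed among the genes. Without French bulldog 6, the SD of log2 CPM over 17 libraries was 0.25 for SETD2, 0.26 for ARID1A, 0.27 for ATRX, 0.28 for IDH2, 0.28 for DAXX and 0.37 for CIC, beside a median of 0.55 over all genes tested. With French bulldogs 2 and 8 summed, ARID1A had 0.23 and ATRX 0.25. TCF12 had 0.60, or 0.53 over 16 libraries with French bulldogs 2 and 8 summed, and TERT had 0.85. The ratio of the highest to the lowest library was 12.6 for TERT, 4.42 for TCF12 and between 1.74 and 2.27 for the other 6 genes. An SD of log2 CPM includes counting error, which is larger for a gene with few reads such as TERT. Mean log2 CPM was 8.2 for SETD2, 7.9 for ARID1A, 8.3 for ATRX, 6.7 for CIC and 4.7 for IDH2. These lie above the median of 3.9 over all genes tested, and DAXX at 3.4 lies below it. The SDs were not compared with those of genes of like expression. Within the 10 remaining French bulldogs the SD of TCF12 was 0.74, or 0.67 with French bulldogs 2 and 8 summed, and within the 7 comparison libraries it was 0.31. For ATRX these were 0.33 (0.30 summed) and 0.17, and for TERT, where the comparison libraries spread more, 0.72 and 0.96. These spreads were not tested against each other.

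**Figure D3:**
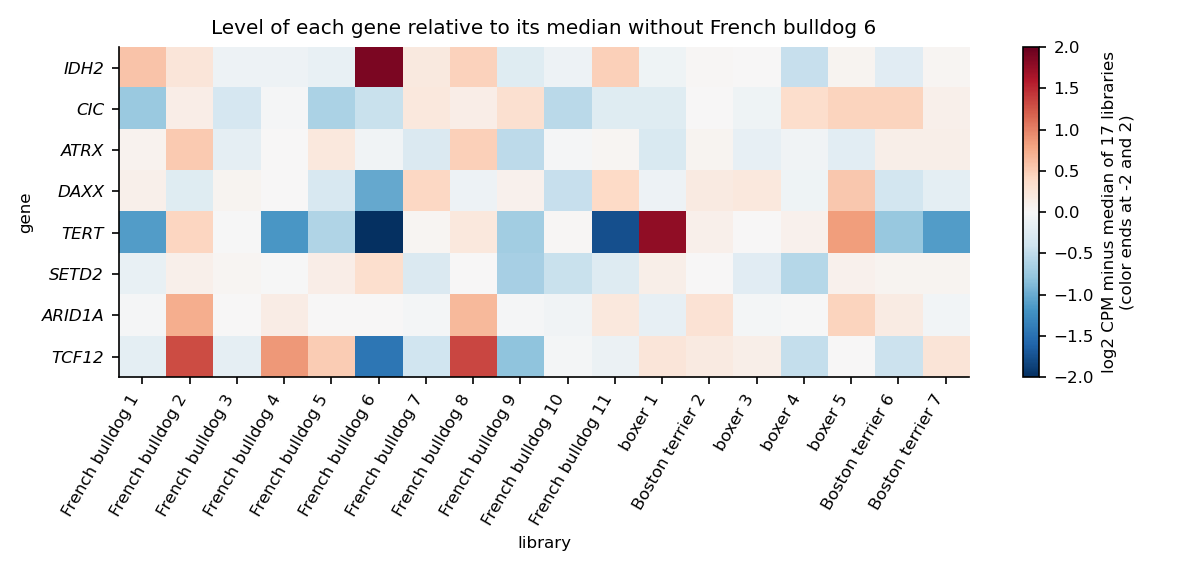
Log2 CPM of each gene (rows) in each library (columns), minus the median of that gene over the 17 libraries other than French bulldog 6; red is above and blue below, and the color scale ends at -2 and 2. French bulldog 6 stands out in IDH2, TERT, TCF12 and DAXX, French bulldogs 2 and 8 in TCF12 and ARID1A, and boxer 1 (high) and French bulldog 11 (low) in TERT.

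Levels of the genes were set against the makeup of the samples in the 17 libraries other than French bulldog 6. Each of the 8 genes was correlated with the scores of the oligodendrocyte lineage, macrophage and microglia, neuron and proliferation markers and with the share of counts held by the gene with the highest count, which was 17.4% to 33.4%. Of these 40 pairs, 6 had a Pearson correlation with an adjusted p-value under 0.05 (permutation tests), and none did by Spearman's rho. With DESeq2 size factors in place of TMM, TCF12 with the proliferation score was the 1 pair that passed (adjusted p = 0.0220), and the other 5 had adjusted p-values of 0.0510 to 0.0604 (permutation tests). With French bulldogs 2 and 8 summed as 1 sample, 0 of the 40 pairs passed and 11 had an unadjusted p-value under 0.05. The r of the 6 pairs then had the same signs and sizes of 0.56 to 0.71, with adjusted p-values of 0.0638 to 0.104 (permutation tests). With all 18 libraries 9 pairs passed, but 2 of them were among these 6, IDH2 with the neuron score and ATRX with the proliferation score.

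The strongest pair was TCF12 with the proliferation score. Its r was 0.75 (permutation p = 0.00041, adjusted p = 0.0164), with a rho of 0.65 (permutation p = 0.00493, adjusted p = 0.0733). It was 0.63 without the 2 libraries farthest from the median score, and 0.71 with French bulldogs 2 and 8 summed (adjusted p = 0.0638). French bulldogs 2, 8 and 4 were the highest libraries in both measures. With French bulldog 6, which had the lowest TCF12 and 1192 normalized CPM of proliferation markers, r was 0.34 (permutation test, adjusted p = 0.274).

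ATRX followed the same score with an r of 0.69 (permutation p = 0.00203, adjusted p = 0.0233, rho = 0.57, permutation p = 0.0182, adjusted p = 0.121). It also ran against the neuron markers, with an r of -0.68 (permutation p = 0.00219, adjusted p = 0.0233, rho = -0.64, permutation p = 0.00733, adjusted p = 0.0733). Without the 2 farthest libraries these values were 0.53 and -0.61, with French bulldogs 2 and 8 summed 0.63 and -0.63, and with French bulldog 6 included 0.60 and -0.44. The proliferation and neuron scores had opposite signs in all of the 17 libraries except French bulldogs 3, 4, 10 and 11. In French bulldog 8, for example, they were 1.39 and -0.97. Correlations of ATRX or TCF12 with both scores are thus not separate results. The correlation between the 2 scores was not tested.

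IDH2 and TCF12 were also lower where neuron markers were higher in the 17 libraries. For IDH2 the r was -0.68 (permutation p = 0.00233, adjusted p = 0.0233, rho = -0.67, permutation p = 0.00373, adjusted p = 0.0733), and -0.73 without the 2 farthest libraries, -0.67 with French bulldogs 2 and 8 summed and -0.85 with French bulldog 6 included. For TCF12 it was -0.62 (permutation p = 0.00735, adjusted p = 0.0490, rho = -0.63, permutation p = 0.00733, adjusted p = 0.0733), -0.56 without those libraries, -0.56 summed and 0.01 with French bulldog 6 included. For SETD2 and the oligodendrocyte lineage score the r was 0.66 (permutation p = 0.00473, adjusted p = 0.0378, rho = 0.52, permutation p = 0.0358, adjusted p = 0.125), 0.46 without the 2 farthest libraries and 0.64 summed. Its sign reversed to -0.28 with French bulldog 6 included.

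Over the 17 libraries, no pair of CIC, DAXX, TERT or ARID1A with any of the 5 measures had an adjusted p-value under 0.05. With French bulldog 6 included, where TERT was at 0 counts, TERT passed with the oligodendrocyte lineage score (r = 0.85, permutation test, adjusted p = 0.0166) and the macrophage score (r = -0.83, permutation test, adjusted p = 0.0203), beside r of 0.36 and -0.40 without that library. For TERT the r with the proliferation score was -0.04 (permutation p = 0.891, adjusted p = 0.938, rho = 0.05). For DAXX the largest r was 0.58, with the share of the gene of highest count (permutation p = 0.0154, adjusted p = 0.0564, rho = 0.53, permutation p = 0.0317, adjusted p = 0.125).

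The proliferation markers had log2 fold changes above 0 for 9 of 9 genes, with a median of 1.05 and unadjusted p-values under 0.05 for 5, where 7.02% of all genes were higher at that threshold. Without French bulldog 6 the median was 0.93 and 2 of the 9 were under 0.05, where 6.92% of all genes were higher. With French bulldogs 2 and 8 summed, 2 of the 9 were under 0.05, where 6.45% of all genes were higher. Leaving out French bulldog 6 as well gave 0 of the 9, where 4.54% of all genes were higher, and a median of 0.77. The smallest p-values with all libraries were those of CCNB2 (1.69), TOP2A (1.34) and BUB1 (1.60), and no adjusted p-value was under 0.05. Their summed levels overlapped between the groups, where French bulldogs 7 and 9, at 110 and 81.3 normalized CPM, lay below the comparison range of 114 to 462 and French bulldog 11, at 118, near its bottom. Their part in the TCF12 and ATRX levels was not tested.

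**Figure D4:**
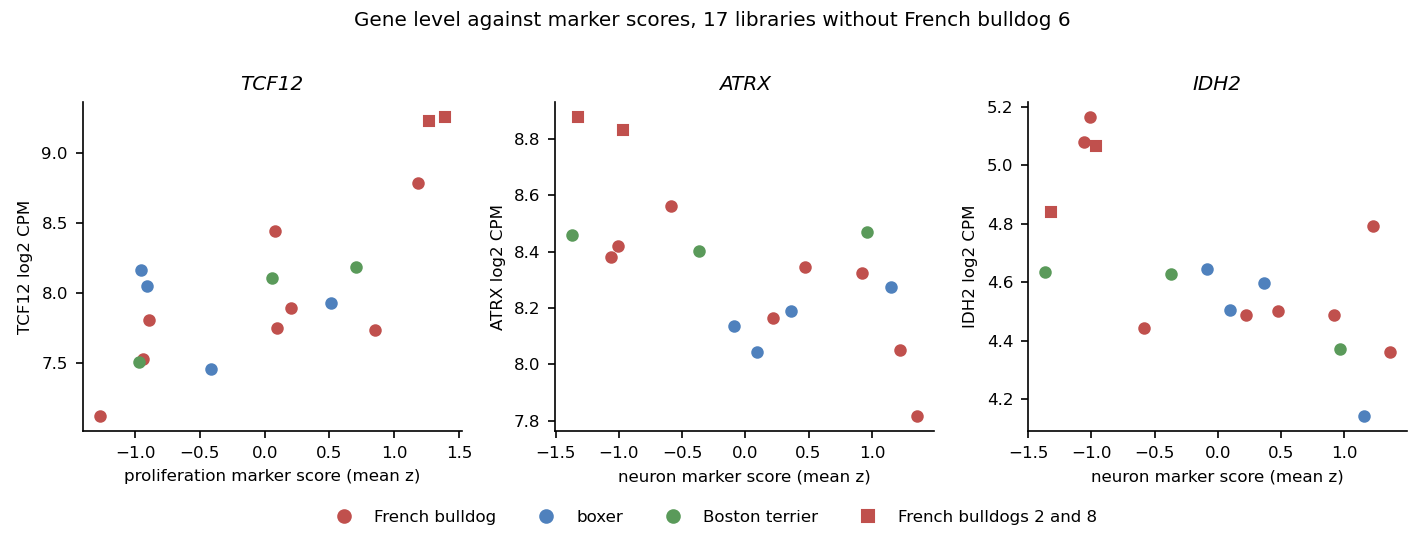
Log2 CPM of TCF12, ATRX and IDH2 (vertical axes) against the mean z-score of proliferation or neuron markers (horizontal axes) in the 17 libraries other than French bulldog 6, colored by breed. TCF12 is higher at higher proliferation scores (r = 0.75), and ATRX and IDH2 are lower at higher neuron scores (both r = -0.68), with French bulldogs 2 and 8, the squares, at the upper end for TCF12 and ATRX.

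Among themselves, the 8 genes form 28 pairs. ATRX with TCF12 was the one with an adjusted p-value under 0.05 by Pearson's r over the 17 libraries (r = 0.76, permutation p = 0.00049, adjusted p = 0.0137, rho = 0.53, permutation p = 0.0314, adjusted p = 0.301). Without the 2 libraries farthest from the median of TCF12, which are French bulldogs 2 and 8, the r was 0.48, and with these libraries summed it was 0.69 (adjusted p = 0.104, permutation test). ATRX and DAXX, partners in 1 complex, had an r of -0.45 (permutation p = 0.0679, adjusted p = 0.317, rho = -0.50, permutation p = 0.0430, adjusted p = 0.301).

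As a description, the genes with the most similar pattern over the same 17 libraries were found for each listed gene, with no test. HNRNPR, ZNF146 and WDR75 came closest to ATRX, with r of 0.93, 0.91 and 0.90. For TCF12 these were ELK4 (0.93), DDX20 (0.92) and PUM2 (0.92), which dropped to 0.57, 0.70 and 0.65 with French bulldog 6. MAML1 (0.90), LRP6 (0.89) and INTS11 (0.89) were nearest to ARID1A, and DCP1A (0.89) and INTS6L (0.88) were among the nearest to SETD2. CIC lay nearest to HIVEP3 (0.89), C15H1orf216 (0.87) and RAI1 (0.87). IDH2 was closest to MGAT2 (0.85), DDOST (0.84) and CPSF7 (0.84), DAXX to MGAT4B (0.86), PPT2 (0.80) and ZBTB24 (0.80), and TERT to SPACA3 (0.85), TSPOAP1 (0.80) and LINS1 (0.79). With French bulldog 6 included, r was 0.04 for MGAT4B, 0.42 for ZBTB24, 0.25 for LINS1 and 0.41 for CPSF7. The values of all genes in a library share its depth and TMM factor.

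**Figure D5:**
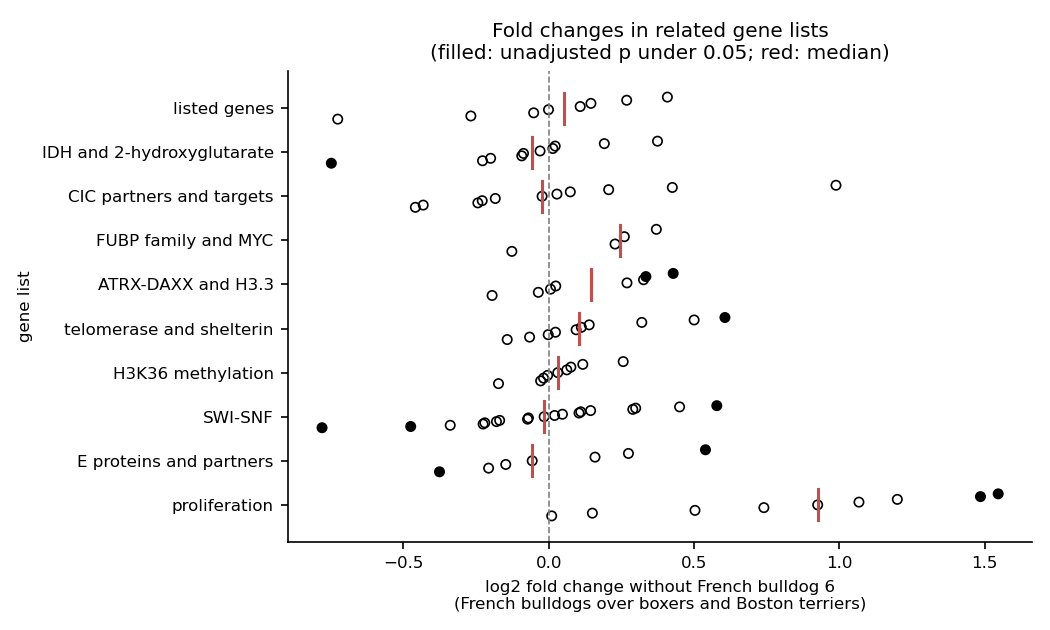
Log2 fold change of French bulldogs over boxers and Boston terriers without French bulldog 6 (horizontal axis) for each tested gene of the lists named on the vertical axis. Filled points have an unadjusted p-value under 0.05 and red bars are list medians; the 8 listed genes have a median of 0.05 beside 0.05 over all genes tested, and the proliferation list has 0.93.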

How the data were processed

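RNASeq libraries from 18 formalin-fixed, paraffin-embedded canine tumor samples were used. The authors deposited raw read counts per gene, not normalized. Per the submitters' processing notes and the methods, paired-end reads were trimmed with Trimmomatic 0.33, mapped with HISAT2 2.1.0 to the dog genome and counted with featureCounts, where the kit was stranded but how counting treated strand and multi-mapped reads is not given in the sources used here. 

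Libraries were grouped by breed from the labels, and French bulldogs were tested against the other breeds pooled. Over all genes this used the quasi-likelihood F test of edgeR 4.0.16 in R 4.3.3, after TMM normalization and filterByExpr, with robust dispersions and Benjamini-Hochberg adjustment of the two-sided p. Intervals are 95% intervals of that fit. DESeq2 1.42.0, limma 3.58.1 (voom), other normalization, filters, left-out libraries, other comparison groups and a replicate block were alternatives. Log2 CPM used a prior count of 2. Marker scores are mean z-scores of a list, and correlations were tested by 100000 permutations (numpy 2.4.6). Code was checked on simulated data.

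Totals of 8212452 to 13169880 counts per library limit the precision, and a floor of 3 counts covers counting error only. The members and lists were chosen with earlier results of these data known. Named genes are all members, the 3 genes of smallest p in each related list, and the 3 genes with a symbol closest to each member. For SETD2, 1 of those 3 is not reported here. Symbols IDH1 and FUBP1 were not matched, so a planned IDH1 to IDH2 ratio was not computed. Neighboring and overlapping genes were named from RefSeq on UU_Cfam_GSD_1.0, which is not the build of the counts, so no position is given.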

Additional observations from a re-analysis of the deposited data

How the results depend on the processing

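Genes passing an adjusted p of 0.05 numbered 1 in edgeR, 58 with DESeq2, 2 with limma-voom and 5 in the 14 libraries numbered 1 to 7 without a block (added once the data had been seen). There were 0 with at least 10 counts in every library (1401 genes at an unadjusted p-value under 0.05), with French bulldogs 2 and 8 summed (1585), against boxers only (1226), against comparison libraries S18 to S21 only (849) and against S1 to S3 only (767). Leaving out each library gave 0 to 7, the most without French bulldog 9. Listed genes at an unadjusted p-value under 0.05 numbered 0 to 2 in those fits, from 0. Without French bulldog 9 they were IDH2 and CIC (12.8% of all genes), and without French bulldog 7 (12.0%) or boxer 1 (8.72%) it was CIC alone. In no setting did a listed gene reach an adjusted p-value under 0.05. With at least 10 counts in every library TERT could not be fitted, because French bulldog 6 has 0 counts.

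The log2 fold changes of IDH2, CIC and TCF12 kept their sign in all settings. SETD2 turned from -0.03 to 0.0002 without a filter, 0.0432 against boxers only, 0.0667 against S18 to S21 only, 0.0955 with the replicate block and 0.0903 in the same 14 libraries without it, and ran from -0.0776 to 0.0179 over left-out libraries. ARID1A turned to -0.0193 against S1 to S3 only and ran from -0.00272 to 0.13 over left-out libraries. Against Boston terriers only, ATRX was -0.0406, DAXX 0.0808 and TERT 0.0566. TCF12 ran from 0.14 without French bulldog 8 to 0.41, and was 0.09 with limma-voom and 0.0758 with the replicate block (0.29 in the same 14 libraries without it). The cause was not tested.

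Of the 40 pairs of gene and score, 6 passed, against 0 with French bulldogs 2 and 8 summed, 1 with DESeq2 size factors and 9 with all 18 libraries, of which 2 were among the 6. With the replicate block, 0 genes passed and 967 had an unadjusted p-value under 0.05. The libraries share a number, not a source, and correlations of same-numbered libraries ran from -0.52 to 0.19, with 3 of 7 over 0.1 and 2 of 14 libraries closest to their own number.

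A planned IDH1 to IDH2 ratio and its alternatives were not run, because no row carries the symbol IDH1. Which libraries shared a sequencing run is not known, so run and breed cannot be told apart. Counting strand is not given in the sources used here, and RefSeq names loci that overlap ATRX, SETD2 and TCF12, whose reads cannot be separated here.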
